A study of Sorghum bicolor with 15 samples.

Results

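The age response of SRN39 sorghum roots was set against that of Shanqui Red (SQR) roots, gene by gene. The measure was the interaction of genotype and age: the log2 change between 28 and 35 d in SRN39 minus the log2 change between the same ages in SQR. A positive value means that the change with age was more positive, or less negative, in SRN39. All 15 labelled libraries of the series entered, 4 of SQR at 28 d, 3 of SQR at 35 d, 4 of SRN39 at 28 d and 4 of SRN39 at 35 d. Of the 34129 genes in the table, the 18473 that exceeded 1 CPM (counts scaled to a common library size) in 3 or more of the 15 libraries were tested.

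SQR is a variety susceptible to the root parasite Striga, and SRN39 is a resistant variety that carries the lgs1-1 allele, a loss of LGS1. They are separate varieties, so differences at LGS1 and at other loci cannot be told apart. Plants of all 4 groups were started in plugs of sterilized field soil and moved with the plug into sand in a greenhouse. They were fed a nutrient solution low in phosphate, and whole root systems were frozen at 28 or 35 d. The title of every library carries the tag S_CTR. Age and harvest day cannot be told apart. The libraries were 3′ mRNA-Seq libraries, which take 1 stretch near the 3′ end of each transcript, and the labels do not say how many plants gave an RNA sample.

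Between these ages a young cereal root system extends its crown and lateral roots, and hormones set much of that growth. Auxin acts by removing Aux/IAA repressors through TIR1/AFB receptors, and it induces SAUR genes, tied to cell expansion, and GH3 genes, whose enzymes conjugate auxin and so lower its active pool. Abscisic acid is perceived by PYR/PYL receptors that inhibit clade A PP2C phosphatases. It induces the late embryogenesis abundant (LEA) and related proteins that protect dehydrating cells, and also PP2C genes of the HAI type. Strigolactones, made through CCD7, CCD8 and further enzymes, are exuded under low phosphate, attract mycorrhizal fungi and induce Striga germination.

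Total counts lay between 6369710 and 17304929 per library, and no 2 replicates held identical counts. Replicate 2 of SQR at 35 d stood apart. A chi-square of counts, divided by the number of genes, was 117 and 120.1 between it and the other SQR libraries at 35 d, and at most 40.4 between any other replicates. The mean variance of log2 CPM between replicates was 0.391 in SQR at 35 d and 0.160 to 0.222 in the other groups. No root markers were fixed, and no gene with a photosynthesis description was among the annotated genes, so the tissue was not checked against markers. In bulk roots, fewer cells of a type and less RNA per cell cannot be told apart.

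With edgeR's quasi-likelihood test over all genes and Benjamini-Hochberg adjustment at 0.05, the interaction was called for 1355 of 18473 genes (7.34%). The change with age was more positive in SRN39 for 679 of them (3.68% of genes tested) and more negative for 676 (3.66%). At an unadjusted p under 0.05 there were 4336 genes. The called genes were then sorted by the age contrast within each genotype, from the same fit and the same libraries, which by itself called 30.9% of the genes tested in SRN39 and 2.6% in SQR. The sorting describes the calls and tests nothing further.

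Most interaction calls were changes of SRN39 roots that SQR roots did not share at the threshold. In 485 genes a rise was called in SRN39 only, and in 566 a fall was called in SRN39 only. In 88 genes a fall was called in SQR only, and in 44 a rise was called in SQR only. Both genotypes changed in opposite directions in 35 genes, both rose in 1 gene, and neither age contrast was called alone in 136. A call in one genotype and not in the other is no test of the difference, which here is the interaction itself. The SQR-only genes were fewer but moved further. The median absolute interaction was 2.24 on the log2 scale for falls in SQR and 2.35 for rises in SQR, against 1.32 for falls and 1.35 for rises in SRN39 and 0.48 over all genes tested. Their standard errors were larger too, with medians of 0.57 and 0.59 against 0.31 in both SRN39 patterns, so only larger values could pass.

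The gap between the genotypes was wider at 35 d than at 28 d in 78.6% of the called genes, against 64.3% of all genes tested. Among rises in SRN39 only, 36 genes were called higher and 120 lower in SRN39 than in SQR at 28 d, and 386 higher and 12 lower at 35 d. Among falls in SRN39 only, 89 were higher and 14 lower at 28 d, and 6 higher and 482 lower at 35 d. The falls in SQR only differed from this, since 48 of the 88 genes were already called lower in SRN39 at 28 d, 2 were called higher, and 43 were called higher at 35 d with 1 lower. Over all genes, the genotype contrast called 17.4% at 28 d, with 8.65% above SQR and 8.74% below. The 35 d contrast called 35.6%, with 16.3% above SQR and 19.4% below. They share their libraries with the interaction and describe its shape only.

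**Figure D1:**
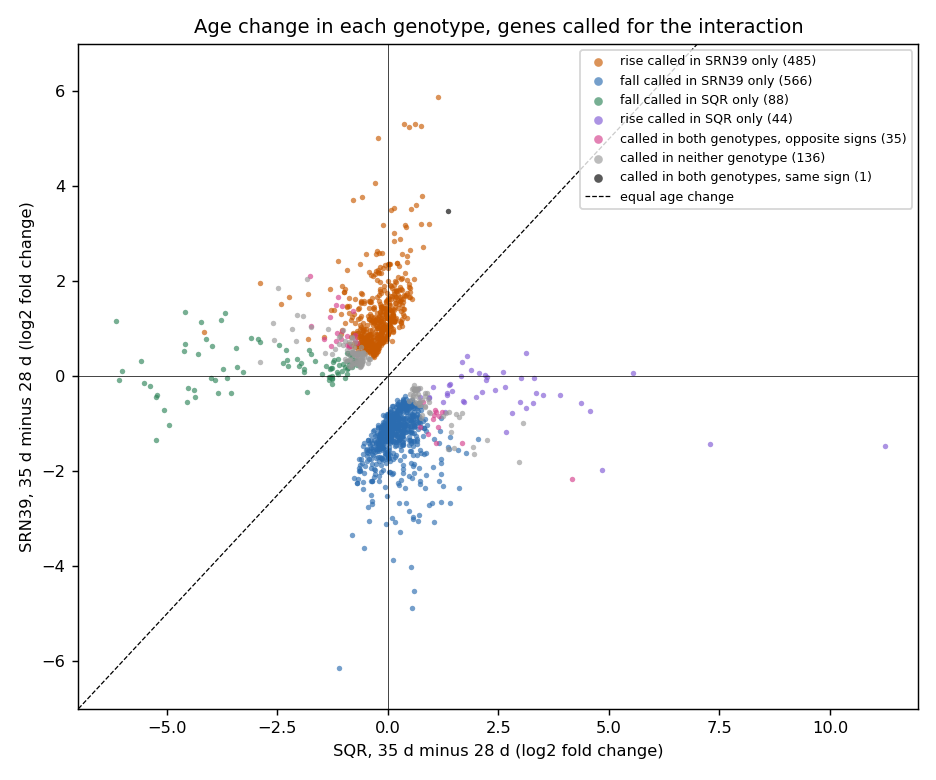
Change with age (35 d minus 28 d, log2 fold change) in SQR on the x axis and in SRN39 on the y axis for the 1355 genes called for the interaction, coloured by which age contrasts were called. The 485 rises and 566 falls called in SRN39 only spread along the y axis near 0 on the x axis, and the 88 falls and 44 rises called in SQR only spread along the x axis.

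The patterns differed in how evenly the libraries carried them. In the 485 genes that rose in SRN39, the median of log2(CPM + 1), centred per gene, was 0.63 to 0.77 in the 4 SRN39 libraries at 35 d and between -0.39 and -0.07 in every other library. In the 566 genes that fell in SRN39 it was between -0.90 and -0.57 at 35 d and between 0.10 and 0.40 elsewhere. All 4 SRN39 libraries at 35 d thus lay apart from the other 11 in both medians, with replicate 4 the farthest. The genes were chosen for this change in these same libraries, so a separation of the medians was built in. Only the differences between replicates describe how evenly they carried it. It was the highest of all libraries in 187 of the 485 rises, against 51 for replicate 1, and the lowest in 305 of the 566 falls, against 33.

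In the 88 genes that fell in SQR, the median was 0.95, 0.15, 1.06 and 0.81 in replicates 1 to 4 of SQR at 28 d and -0.84, -0.88 and -0.65 at 35 d, while the SRN39 libraries lay between -0.25 and 0.15. Replicate 3 at 28 d was the highest of all libraries in 45 of the 88 genes and replicate 2 in 0. In the 44 genes that rose in SQR, the median at 35 d was 1.07, 2.42 and 0.60 in replicates 1 to 3, and replicate 2, the library that stood apart, was the highest of all libraries in 34 of the 44.

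**Figure D2:**
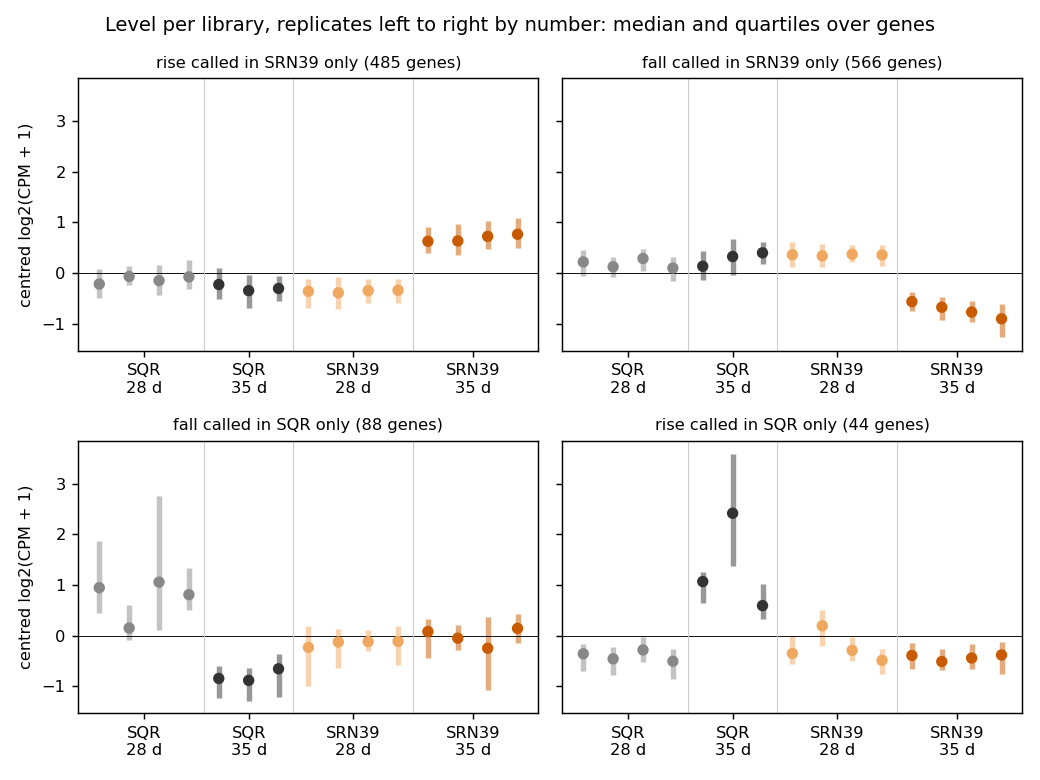
Centred log2(CPM + 1) per library for the genes of 4 patterns, with points for the median over genes, bars for the quartiles, and replicates in number order within each group. In the SRN39 patterns the 4 SRN39 libraries at 35 d lie apart from all others, with medians of 0.63 to 0.77 for rises and -0.90 to -0.57 for falls, while the rise in SQR is led by replicate 2 at 35 d with a median of 2.42. The genes were chosen for these changes in the same libraries, so a separation of the groups was built in.

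The number of calls moved with single libraries. Without replicate 2 of SQR at 35 d there were 1589 calls. With each library left out in turn, the count fell by more than 1.5 times in 4 of 15 fits, to 836 without SQR replicate 4 at 28 d, 869 without SRN39 replicate 4 at 28 d, and 876 and 882 without SRN39 replicates 3 and 4 at 35 d. Among genes with a more negative change in SRN39, the count also fell to 440 without SRN39 replicate 2 at 28 d and rose to 1021 without SQR replicate 1 at 35 d. Of the 1355 genes, 671 (49.5%) were called in all 15 of these fits. That share was 57.7% for rises in SRN39, 47.9% for falls in SRN39, 55.7% for falls in SQR, 45.5% for rises in SQR and 11% for genes called in neither genotype alone.

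**Figure D3:**
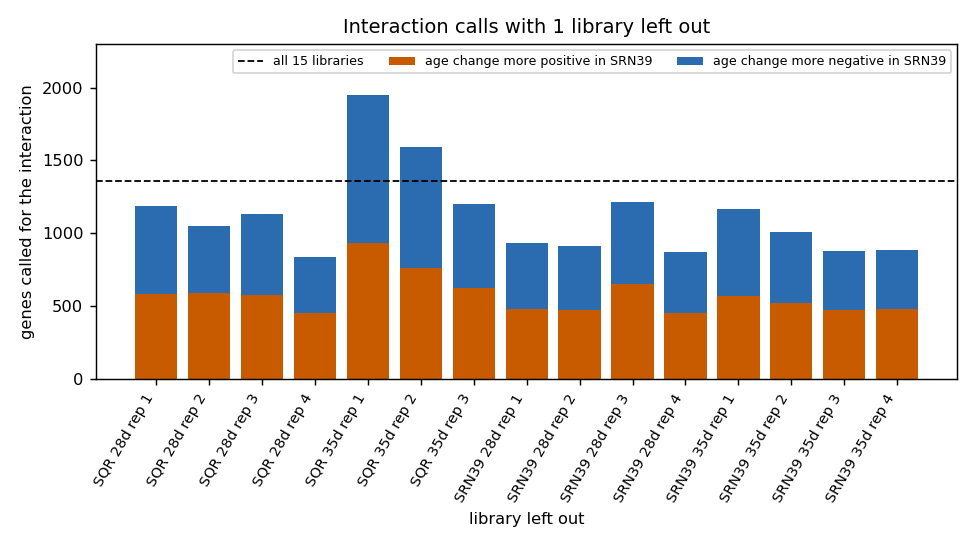
Number of genes called for the interaction (y axis) with each library left out in turn (x axis), split by direction, with a dashed line at the 1355 calls of all 15 libraries. The count runs from 836 without SQR replicate 4 at 28 d to 1951 without SQR replicate 1 at 35 d.

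The number of genes in each pattern moved as well. Rises called in SRN39 only numbered 751 without SQR replicate 1 at 35 d, the 1 fit of 15 that moved them by more than 1.5 times. Falls called in SRN39 only numbered 349 without SQR replicate 4 at 28 d, 375 without SQR replicate 3 at 35 d, 352 without SRN39 replicate 4 at 28 d, and 341 and 335 without SRN39 replicates 3 and 4 at 35 d. Falls called in SQR only numbered 23 without replicate 2 of SQR at 35 d and 178 without replicate 3, and the count moved by more than 1.5 times in 10 of the 15 fits. The interaction itself was still called for 68 of the 88 genes without replicate 2 at 35 d, and for 61 to 86 over the 15 fits. Rises called in SQR only numbered 13 without replicate 2 and 126 without replicate 3, and the count moved by more than 1.5 times in 9 of the 15 fits. The interaction was still called for 24 of these 44 genes without replicate 2. Opposite changes in both genotypes numbered 0 without SQR replicate 4 at 28 d and 86 without SQR replicate 3 at 35 d, and moved by more than 1.5 times in 12 of the 15 fits, although all 35 of those genes kept the interaction call in every fit.

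Calls were more frequent among abundant transcripts, where the standard error was smaller. The interaction was called for 0.82% of genes whose highest group mean was under 2 CPM, with a median standard error of 0.75, and for 13.6% of those over 50 CPM, with a median standard error of 0.29. The share called ran from 5.46% on chromosome 8 to 8.02% on chromosome 6, against 7.34% in all.

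Names were available for 412 of the tested genes, on chromosome 1 and the start of chromosome 2, by their best Arabidopsis or rice match, and for 14 genes that the study names in its text or its plots of strigolactone genes, some of them among the 412. The study chose the 412 for a genotype difference at 28 d in these same libraries, so 53 calls among them (12.9%) are not independent of that choice. The study took the 3 SAUR and 2 HAI3 homologs from clusters of genes with a genotype-by-time pattern in these libraries, so their calls and directions are not independent either. The groups below are counts and medians of these named genes with no test of the group.

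Auxin genes changed with age in SRN39 in both directions. Of 7 tested auxin genes, 3 were called with a more positive change in SRN39, 2 with a more negative one, and 2 were not called, with a median interaction of 0.87 against -0.02 over all genes, of which 3.68% were called in the first direction and 3.66% in the second. Without the 3 SAUR homologs, 1 of 4 was called more positive and 2 more negative, against 12.9% of annotated genes called, and the median was -1.14. Of all 7 auxin genes, 3 to 6 were called over the 15 fits that left out 1 library, and limma-voom called 4. Both OsSAUR72 homologs were among the genes called with a more positive change. The OsSAUR72 homolog Sobic.002G259100 was at 343, 326, 489 and 302 CPM in SQR at 28 d and 277, 198 and 214 CPM at 35 d. In SRN39 it was at 403, 413, 252 and 312 CPM at 28 d and 469, 615, 514 and 539 CPM at 35 d. The SRN39 libraries at 35 d lay above all others except SQR replicate 3 at 28 d, and the libraries of the 2 ages did not overlap in either genotype. It rose by 0.63 (standard error 0.20, edgeR adjusted p = 0.024) in SRN39, and the change in SQR was -0.67 (adjusted p = 0.091). The interaction of 1.30 (standard error 0.29, adjusted p = 0.015) was called in all 15 fits that left out 1 library.

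The OsSAUR72-like homolog Sobic.004G156300 was at 134, 133, 108 and 153 CPM in SQR at 28 d and 151, 75.3 and 81.4 CPM at 35 d. In SRN39 it was at 135, 146, 91.2 and 141 CPM at 28 d and 167, 255, 214 and 268 CPM at 35 d. Its highest 4 libraries were those of SRN39 at 35 d, while the ages overlapped in SQR. The interaction was 1.18 (standard error 0.34, edgeR adjusted p = 0.042), a call that only 3 of the 15 fits kept and that was lost without SQR replicate 2 at 35 d (1.00, adjusted p = 0.0722). The OsSAUR50 homolog Sobic.007G191400 was at 17.3, 17.1, 14.9 and 20.2 CPM in SQR at 28 d and 21.7, 25.4 and 15.7 CPM at 35 d, and in SRN39 at 9.84, 9.8, 10.9 and 8.01 CPM and then 17.5, 24.0, 22.6 and 20.9 CPM. It rose in SRN39 by 1.14 (adjusted p = 0.00036) to the range of SQR. Its interaction of 0.87 (95% interval 0.32 to 1.42, adjusted p = 0.053) missed the threshold, and was called by DESeq2 (adjusted p = 0.0267) and without SQR replicate 2 at 35 d (1.03, adjusted p = 0.0229).

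The auxin-conjugating GH3 match went the other way. Sobic.001G331200, whose best rice match is OsGH3.8, was at 117, 108, 104 and 118 CPM in SRN39 at 28 d and 30.4, 24.0, 20.5 and 23.2 CPM at 35 d. The SQR libraries held 49.4, 36.7, 64.6 and 29.8 CPM at 28 d and 66.2, 41.7 and 57.8 CPM at 35 d. SRN39 thus passed from above every SQR library at 28 d to below every SQR library at 35 d. The interaction was -2.48 (standard error 0.31, edgeR adjusted p = 0.0011), called in all 15 fits.

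The Aux/IAA match Sobic.001G056100 (Arabidopsis IAA3/SHY2, an auxin response repressor) moved in opposite directions in the genotypes. It was at 19.9, 24.3, 32.7 and 33.0 CPM in SQR at 28 d and 10.2, 10.3 and 16.5 CPM at 35 d, and at 8.89, 7.94, 6.21 and 8.29 CPM in SRN39 at 28 d and 14.5, 10.9, 18.1 and 15.1 CPM at 35 d. The ages did not overlap in either genotype, and at 35 d the genotypes overlapped. It fell by 1.16 in SQR (edgeR adjusted p = 0.022) and rose by 0.90 in SRN39 (adjusted p = 0.0067), with an interaction of 2.06 (standard error 0.33, adjusted p = 0.0032). Sobic.001G477400, whose best rice match is the receptor AUXIN SIGNALING F-BOX 2, fell in SRN39 from 47.3 ± 4.23 CPM to 22.3 ± 5.53 CPM (SD, n = 4 each). It was at 15.5 ± 2.25 CPM (n = 4) and 15.7 ± 4.48 CPM (n = 3) in SQR. Its interaction of -1.11 (edgeR adjusted p = 0.035) was kept in 6 of the 15 fits.

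Of 9 tested genes listed for abscisic acid by their Arabidopsis match, 4 were called, all with a more positive change in SRN39. The median interaction was 1.62, and 7.34% of all genes and 12.9% of annotated genes were called. Without the 2 HAI3 homologs, 2 of 7 were called and the median was 1.11. These 7 are a single row of genes, described below, whose rice matches are Bet v I proteins and which are also counted as defense genes. The count for all 9 was 4 in each of the 15 fits that left out 1 library. HAI3 is an Arabidopsis PP2C phosphatase that abscisic acid induces and that dampens abscisic acid signaling, and both sorghum homologs rose in SRN39. Sobic.002G172000 was at 1.48, 2.17, 3.35 and 1.55 CPM in SRN39 at 28 d and 6.54, 8.25, 6.35 and 11.1 CPM at 35 d. SQR held it at 2.71, 2.56, 5.13 and 2.98 CPM at 28 d and 2.29, 1.48 and 1.13 CPM at 35 d. The SRN39 libraries at 35 d were the 4 highest of all, and the 3 SQR libraries at 35 d lay below every SQR library at 28 d. It rose by 1.91 in SRN39 (edgeR adjusted p = 0.00061), and the change in SQR was -1.05 (adjusted p = 0.11), for an interaction of 2.96 (standard error 0.49, adjusted p = 0.0034).

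The other HAI3 homolog, Sobic.003G354000, was at 2.33, 3.09, 5.02 and 2.55 CPM in SRN39 at 28 d and 9.5, 9.94, 7.31 and 8.97 CPM at 35 d. SQR libraries were at 6.17, 6.16, 8.98 and 4.14 CPM and then 5.74, 4.99 and 6.53 CPM. The ages did not overlap in SRN39 and overlapped in SQR. The interaction was 1.62 (standard error 0.38, edgeR adjusted p = 0.018), called in all 15 fits and lost after thinning every library to the lowest depth (1.34, adjusted p = 0.0695).

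The remaining called abscisic acid matches are neighbours on chromosome 1 in a row of 7 annotated genes. Their best Arabidopsis matches are the receptors PYL6 and PYL12, while their best rice matches are pathogenesis-related Bet v I proteins, a family that shares the receptors' fold. Sobic.001G400900 was at 10.6, 15.6, 18.0 and 11.3 CPM in SRN39 at 28 d and 93.9, 86.4, 109 and 45.5 CPM at 35 d, and between 0.497 and 1.11 CPM in every SQR library. It rose by 2.59 (edgeR adjusted p = 1.4e-05) in SRN39, with an interaction of 2.72 (standard error 0.53, adjusted p = 0.0072). Sobic.001G401000 was at 669, 732, 578 and 601 CPM in SRN39 at 28 d and 1640, 1180, 1610 and 1160 CPM at 35 d. In SQR it was at 34.3, 13.8, 13.5 and 13.6 CPM and then 12.2, 11.2 and 10.2 CPM, and the interaction was 1.86 (adjusted p = 0.011). Both rose in a genotype where they were already far higher than in SQR at 28 d. The other 5 genes of the row were not called, with interactions from -0.22 to 1.65. Reads of such similar neighbours can be split between them, so their separate values are uncertain.

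**Figure D4:**
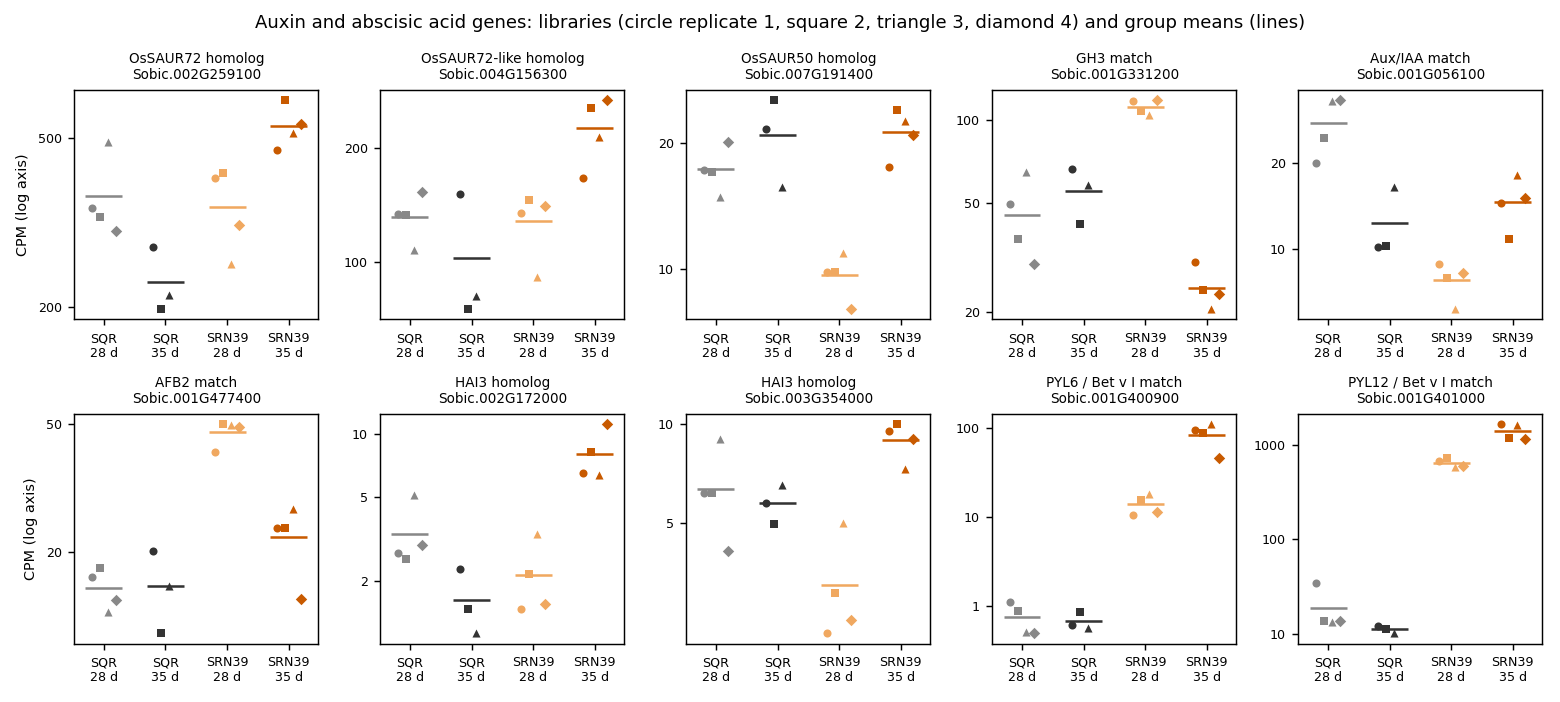
CPM on log axes in every library (symbols by replicate number) with group means (lines) for 6 auxin genes and 4 abscisic acid genes. The SRN39 libraries at 35 d are the 4 highest for the OsSAUR72-like homolog, at 167 to 268 CPM, and for the HAI3 homolog Sobic.002G172000, at 6.35 to 11.1 CPM, while the GH3 match fell in SRN39 from 104 to 118 CPM to 20.5 to 30.4 CPM.

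Among the 485 genes that rose in SRN39 only, several annotated ones with a large interaction started below SQR at 28 d. The study chose the annotated genes for a genotype difference at that age in these libraries, so such starts were partly built in. Of all 485 genes, 120 were called lower and 36 higher in SRN39 than in SQR at 28 d. The cytochrome P450 match Sobic.002G000400 (CYP93D1) was at 5.92, 5.47, 6.01 and 3.91 CPM in SRN39 at 28 d and 52.5, 50.3, 64.8 and 30.4 CPM at 35 d. In SQR it was at 39.6, 28.2, 11.5 and 27.8 CPM at 28 d and 43.2, 44.6 and 63.6 CPM at 35 d. SRN39 thus lay below every SQR library at 28 d and overlapped SQR at 35 d, with an interaction of 2.29 (standard error 0.45, edgeR adjusted p = 0.0074). The CYP71B7 match Sobic.001G176600 rose from 32.1 ± 7.44 to 171 ± 25.7 CPM in SRN39 (SD, n = 4 each), past the 98.2 ± 5.66 CPM of SQR at 35 d (n = 3), with an interaction of 1.97 (edgeR adjusted p = 0.0055). Of 10 annotated cytochrome P450 genes, 4 were called, all with a more positive change in SRN39, against 12.9% of annotated genes called in either direction, with a median of 0.70, and 2 to 5 were called when 1 library was left out.

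A methionine-S-oxide reductase match and an actin-depolymerizing factor crossed over between the genotypes. Sobic.001G513300, matched to an enzyme that repairs oxidized methionine, was at 3.17, 3.3, 4.04 and 3.91 CPM in SRN39 at 28 d and 17.6, 10.9, 22.1 and 19.7 CPM at 35 d, and between 8.61 and 11.6 CPM in every SQR library. The interaction was 2.28 (standard error 0.32, edgeR adjusted p = 0.0013). Sobic.001G417600, matched to ADF4, which severs actin filaments, was at 2.64, 2.37, 2.46 and 3.46 CPM at 28 d and between 9.22 and 14.7 CPM at 35 d in SRN39, and between 5.54 and 9.77 CPM in SQR. Its interaction was 2.27 (standard error 0.32, adjusted p = 0.0014). In the first gene 1 SRN39 library at 35 d lay within the SQR range and in the second also 1, and all SRN39 libraries at 28 d lay below SQR in both.

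The LSU4 match Sobic.001G198000, named for its response to low sulfur, rose from 29.9 ± 2.43 to 120 ± 14.6 CPM in SRN39 (SD, n = 4 each), and was at 81.2 ± 29.8 (n = 4) and 90.5 ± 45.2 CPM (n = 3) in SQR, with an interaction of 1.84 (edgeR adjusted p = 0.016). Of 9 glutathione transferases, which conjugate glutathione to reactive compounds, 3 were called with a more positive change in SRN39. This was 33.3%, against 12.9% of annotated genes called, and 0 to 3 were called when 1 library was left out. Among these, the GSTU17 match Sobic.001G317000 had an interaction of 1.30 (adjusted p = 0.038), a call that 3 of 15 fits kept. The GSTF8 match Sobic.001G514300 had 1.79 (adjusted p = 0.024) without a called change in either genotype alone, at -1.11 in SQR and 0.69 in SRN39, and was kept in 14 of 15 fits. The callose synthase match Sobic.001G521500 (GSL12) rose from 27.5 ± 3.88 to 43.8 ± 4.19 CPM in SRN39, and had the interaction of 1.05 (adjusted p = 0.0076) with the smallest standard error among the named genes, 0.21. Further called rises in SRN39 were those of the zinc finger match Sobic.001G147200 (interaction 1.32, adjusted p = 0.0071), the receptor-like kinase match Sobic.001G503300 (CRCK2, 1.23, adjusted p = 0.039, kept in 5 of 15 fits) and the DnaJ match Sobic.001G148500 (0.91, adjusted p = 0.043, kept in 3).

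A pair of neighbouring basic secretory protein matches, of a family of secreted plant proteins, fell in SRN39, and in SQR a rise was called for the second only. Sobic.001G209200 was at 14.8, 23.1, 56.1 and 21.8 CPM in SRN39 at 28 d and 8.68, 14.2, 7.02 and 9.51 CPM at 35 d, and in SQR at 157, 74.1, 109 and 78.5 CPM and then 194, 667 and 86.7 CPM. The age change of this first gene was -1.555 in SRN39 (edgeR adjusted p = 0.031). In SQR it was 1.596, of like size in the other direction, but not called (adjusted p = 0.093). Its interaction of -3.15 (standard error 0.73, edgeR adjusted p = 0.017) rests in part on the 667 CPM of SQR replicate 2, and without that library it was -1.98 (adjusted p = 0.0428). The neighbour Sobic.001G209300 was at 83.5, 86.2, 75.3 and 87.1 CPM in SRN39 at 28 d and 41.7, 31.3, 38.8 and 31.5 CPM at 35 d. In SQR it was at 22.0, 18.7, 28.0 and 15.6 CPM and then 37.0, 43.4 and 39.5 CPM. It fell by 1.21 in SRN39 (adjusted p = 0.00015) and rose by 0.92 in SQR (adjusted p = 0.018), so that the genotypes, far apart at 28 d, overlapped at 35 d. Its interaction of -2.13 (standard error 0.25, adjusted p = 0.0006) was called in all 15 fits. Reads of these neighbours could be shared if their 3′ ends are alike.

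The dirigent match Sobic.001G507100, of the proteins that guide lignan and lignin coupling, was at 222, 225, 135 and 175 CPM in SRN39 at 28 d and 89.1, 62.3, 72.1 and 51.0 CPM at 35 d. In SQR it was at 55.5, 84.3, 92.7 and 77.2 CPM and then 59.8, 127 and 71.3 CPM, and the interaction was -1.62 (standard error 0.36, edgeR adjusted p = 0.015). SRN39 was above every SQR library at 28 d only. The glycine-rich wall protein match Sobic.001G232200 fell from 17.9 ± 8.75 to 5.84 ± 1.73 CPM in SRN39 (SD, n = 4 each), against 56.9 ± 8.83 (n = 4) and 55.7 ± 15.8 CPM (n = 3) in SQR. Its interaction of -1.60 (adjusted p = 0.034) was kept in 6 of 15 fits. The pectin methylesterase match Sobic.001G252300 (PME31) had an interaction of -1.30 (adjusted p = 0.022). Of 13 annotated cell wall genes, 1 was called with a more positive and 1 with a more negative change in SRN39, with a median of -0.40. That share of 15.4% was near the 12.9% of annotated genes called.

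The cyclin match Sobic.001G295000 (CYCP4;1), of the P-type cyclins, was at 631, 582, 354 and 471 CPM in SRN39 at 28 d and 153, 129, 164 and 101 CPM at 35 d, and in SQR at 216, 181, 276 and 288 CPM and then 168, 117 and 219 CPM. It fell by 1.90 in SRN39 (edgeR adjusted p = 7.5e-05), with 1 of the 4 libraries at 35 d below every SQR library of that age, and had an interaction of -1.38 (standard error 0.34, adjusted p = 0.022). The bHLH transcription factor match Sobic.001G278300, with at most 4.54 CPM in any library, fell by 2.68 in SRN39 (adjusted p = 0.0022) and had an interaction of -4.07 (standard error 0.80, adjusted p = 0.0075). The glucosyltransferase match Sobic.001G012400 (UGT85A3, in rice a cytokinin-O-glucosyltransferase match) had an interaction of -2.15 (adjusted p = 0.024) with neither age contrast called, at 1.39 in SQR and -0.76 in SRN39, and was kept in 14 of 15 fits.

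Among the annotated genes that changed in SQR only, those linked to dehydration led the falls. They were high in SQR at 28 d, low at 35 d, and mostly low in SRN39 at both ages. Sobic.001G200700 matches Arabidopsis RD29B, a gene induced by dehydration and abscisic acid. It was at 222, 48.3, 475 and 111 CPM in SQR at 28 d and 6.88, 4.99 and 3.63 CPM at 35 d. In SRN39 it was at 4.65, 10.1, 54.8 and 39.7 CPM at 28 d and 20.1, 34.3, 4.43 and 35.9 CPM at 35 d. The SQR ages were far apart, although the SQR libraries at 28 d themselves differed widely, and the SRN39 ages overlapped throughout. It fell by 5.37 in SQR (standard error 0.97, edgeR adjusted p = 0.013), and the change in SRN39 was -0.21 (adjusted p = 0.85), for an interaction of 5.17 (standard error 1.15, adjusted p = 0.014).

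The LEA protein match Sobic.001G492000 was at 89.7, 40.1, 319 and 67.1 CPM in SQR at 28 d and 7.8, 5.38 and 2.74 CPM at 35 d, and in SRN39 at 4.44, 5.57, 25.7 and 10.7 CPM and then 9.09, 27.4, 7.17 and 23.5 CPM. Its interaction was 5.13 (standard error 1.00, edgeR adjusted p = 0.0072). The membrane protein match Sobic.001G409400 (OsRCI2-5, a family responsive to cold and salt) was at 506, 164, 1590 and 354 CPM in SQR at 28 d and 56.0, 22.3 and 21.5 CPM at 35 d, and in SRN39 at 21.9, 36.5, 152 and 69.3 CPM and then 125, 79.7, 21.8 and 159 CPM. Its interaction was 4.76 (standard error 1.07, adjusted p = 0.014). In both genes replicate 3 was the highest and replicate 2 the lowest of SQR at 28 d, as in RD29B, and in SRN39 replicate 3 was the highest at 28 d and the lowest at 35 d.

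The same order of libraries was seen in genes of other roles. The actin-depolymerizing factor match Sobic.001G034900 (ADF3) was at 103, 35.0, 244 and 64.8 CPM in SQR at 28 d and 9.03, 11.5 and 10.6 CPM at 35 d, and between 7.54 and 42.7 CPM in SRN39, with an interaction of 4.04 (standard error 0.81, edgeR adjusted p = 0.0082). Its family member that matched ADF4 (above) changed in SRN39 instead. The ribosomal protein match Sobic.001G383000 (RPL10) was at 23.6, 10.6, 71.7 and 24.8 CPM and then 3.29, 5.93 and 2.26 CPM in SQR, with an interaction of 3.91 (standard error 0.88, adjusted p = 0.014). The EC metallothionein match Sobic.001G311200, of a metal-binding family typical of seeds, was at 2.96, 2.08, 9.04 and 2.82 CPM and then 0.612, 0.156 and 0.242 CPM in SQR, with an interaction of 3.59 (standard error 0.85, adjusted p = 0.018). In each of these genes the SQR libraries did not overlap between ages, and replicate 3 was the highest at 28 d.

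These calls did not rest on replicate 3 alone. Without SQR replicate 3 at 28 d the interaction was 4.41 for RD29B, 4.16 for the LEA gene, 3.83 for RCI2-5, 3.31 for ADF3, 3.16 for RPL10 and 2.86 for the metallothionein match, with edgeR adjusted p from 0.00925 to 0.027. All 6 were also called in each of the other fits that left out 1 library. The metallothionein match, however, exceeded 1 CPM only in SQR at 28 d. It passed the filter only through the group where it was high, so it had to differ, and its calls are no support. Of 3 annotated LEA and dehydration genes, 2 were called, against 12.9% of annotated genes, and the galactinol synthase match Sobic.001G391300 was not (0.94, adjusted p = 0.182). The metallothionein match was not called by limma-voom (3.18, adjusted p = 0.078) or after thinning (3.63, adjusted p = 0.0557). What made the SQR replicates at 28 d differ was not tested.

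**Figure D5:**
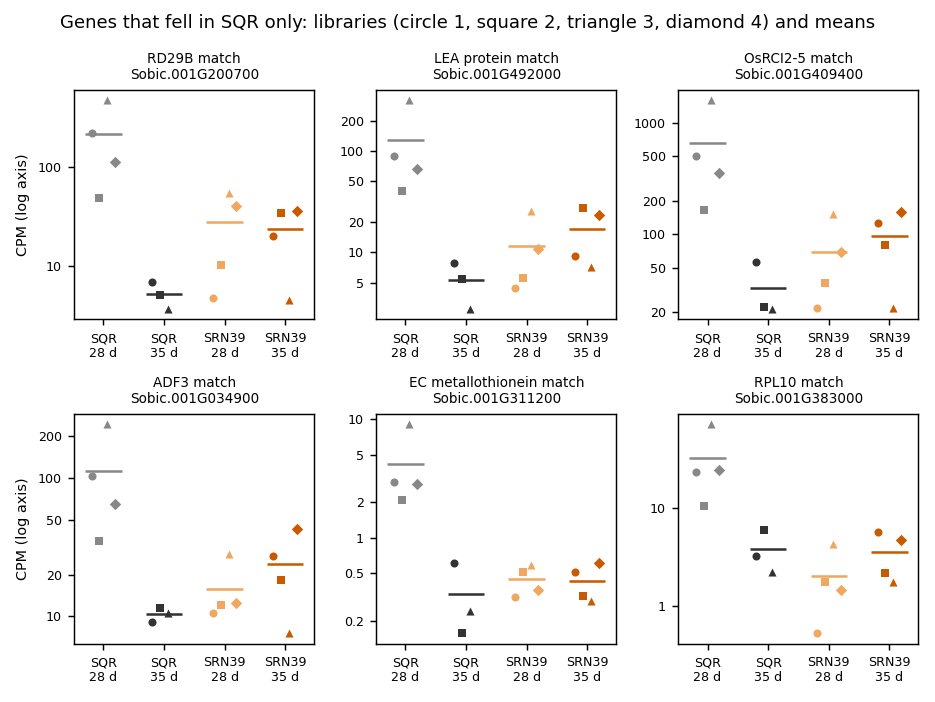
CPM on log axes in every library (circle replicate 1, square 2, triangle 3, diamond 4) with group means for 6 genes that fell in SQR only. Every SQR library at 28 d lies above every SQR library at 35 d, replicate 3 is the highest at 28 d, and the SRN39 ages overlap.

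Among called genes with a group mean of at least 10 CPM, the largest positive and negative interactions were in unnamed genes. The sources used here hold no name for them. Sobic.010G041900 was at 18.9, 8.41, 89.3 and 12.3 CPM in SQR at 28 d and 0.688, 0.468 and 0.323 CPM at 35 d, with an interaction of 6.13 (standard error 1.32, edgeR adjusted p = 0.012). Sobic.002G118300 was at 55.3, 11.8, 160 and 28.8 CPM and then 0.765, 1.56 and 0.484 CPM, with an interaction of 6.01 (standard error 1.26, adjusted p = 0.01). Both showed the library order of the dehydration genes, with replicate 3 highest and replicate 2 lowest at 28 d. Limma-voom called neither (adjusted p = 0.0611 and 0.0639).

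At the other end, the adjacent genes Sobic.004G283201 and Sobic.004G283300 were read almost only in SQR at 35 d. Sobic.004G283201 had 0 counts in all 4 SQR libraries at 28 d and 142, 759 and 119 counts (10.9, 59.2 and 9.6 CPM) at 35 d. Against the limit of 3 counts over the 44640802 counts of SQR at 28 d, a limit that covers counting error only, its mean at 35 d was at least 374.9-fold higher, and at least 144.5-fold without replicate 2. In the SRN39 libraries it had 0 or 1 count. It passed the filter only through the 3 libraries where it was high, so it had to differ, and it could not be fitted without any 1 of them. Its interaction had an edgeR adjusted p of 0.029, but the call was lost in 4 of the 12 fits without 1 library that could be made and after thinning (adjusted p = 0.191). Sobic.004G283300 was at 0.37, 0, 0.0641 and 0.166 CPM in SQR at 28 d and 5.51, 48.0 and 8.95 CPM at 35 d, and at most 1.44 CPM in SRN39. Its interaction was -8.72 (standard error 1.44, adjusted p = 0.0033), and -7.19 (adjusted p = 0.00331) without SQR replicate 2 at 35 d, which was again the highest library. Limma-voom did not call it (adjusted p = 0.0586). This gene too passed the filter only through SQR at 35 d, where it was high, so a difference was built in.

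Among the genes that rose in SQR only with a group mean of at least 10 CPM, 1 carried an annotation, the zinc transporter match Sobic.001G142800 (ZIP10). Its level was 2.59, 4.32, 1.15 and 1.32 CPM in SQR at 28 d and 16.8, 13.0 and 1.69 CPM at 35 d, and between 4.7 and 9.63 CPM in SRN39. The ages overlapped in SQR, since replicate 3 stayed low. Its interaction of -2.46 (edgeR adjusted p = 0.045) was kept in 2 of the 15 fits and was lost without SQR replicate 2 at 35 d (-2.27, adjusted p = 0.0709).

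Most strigolactone genes gave no call for the interaction. One gene encoding NSP1, a GRAS transcription factor needed for strigolactone synthesis in legumes and rice, was the exception. Sobic.001G341400 was at 19.4, 25.2, 23.0 and 18.8 CPM in SRN39 at 28 d and 50.2, 69.3, 42.5 and 60.2 CPM at 35 d, and in SQR at 5.92, 12.1, 7.5 and 6.13 CPM and then 12.2, 5.07 and 6.05 CPM. It rose by 1.36 in SRN39 (edgeR adjusted p = 0.0014), and the change in SQR was -0.04 (adjusted p = 0.95), for an interaction of 1.41 (standard error 0.40, adjusted p = 0.043). Only 3 of the 15 fits kept that call, and it was lost without SQR replicate 2 at 35 d (1.18, adjusted p = 0.0735) and with library totals in place of TMM factors (1.49, adjusted p = 0.0539). The other NSP1 gene, Sobic.002G372100, had an interaction of 0.63 (95% interval -0.13 to 1.39, edgeR adjusted p = 0.31). It was called without SQR replicate 1 at 35 d (1.13, adjusted p = 0.0221) and was 0.38 without replicate 2.

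The biosynthetic genes had wide intervals. The interaction was 0.01 (95% interval -1.85 to 1.86, and -0.37 to 1.03 over the fits without 1 library) for CCD7 (Sobic.006G170300), 0.56 (-0.60 to 1.73) for CCD8 (Sobic.003G293600) and -0.22 (-0.86 to 0.41) for LBO (Sobic.003G418000), with edgeR adjusted p of 1, 0.58 and 0.70. For SMXL3 (Sobic.008G042800), which the study plots with its strigolactone genes, it was -0.35 (-1.67 to 0.97, edgeR adjusted p = 0.78). LGS1 (Sobic.005G213600), a sulfotransferase gene that sets strigolactone stereochemistry, was at 36.5, 81.0, 38.6 and 53.5 CPM in SQR at 28 d and 39.6, 19.5 and 18.8 CPM at 35 d, and between 0.455 and 1.63 CPM in SRN39. Its interaction of 1.29 (0.16 to 2.43, adjusted p = 0.15) was called only without SQR replicate 1 at 35 d among the 15 fits (1.73, adjusted p = 0.0366). The study reports that SRN39 carries a deletion that includes LGS1. The SRN39 value (0.28, adjusted p = 0.65) thus rests on few counts and is no age response of an intact LGS1. The interaction of LGS1 sets the SQR change against those counts, and their origin was not tested. The floral initiation gene Sobic.010G180200 was not called either (-1.97, -4.30 to 0.36, adjusted p = 0.30), and Sobic.008G168400 did not pass the filter, with at most 4 counts in a library. LBO, a late step of the pathway, fell by 0.85 in SRN39 (adjusted p = 0.0055), and its change in SQR was -0.62 (adjusted p = 0.12).

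The other annotated groups were small, and their counts stand beside 12.9% of annotated genes and 7.34% of all genes called. None of 5 phosphate starvation genes (PHR1, SPX4 and purple acid phosphatase matches; median interaction -0.03), none of 11 lipid and suberin genes (-0.35) and none of 5 peroxidases (0.04) was called by edgeR. At an unadjusted p under 0.05 there was 1 phosphate starvation gene and 1 peroxidase. DESeq2 called 1 of these genes and limma-voom called 0. The DESeq2 call was the peroxidase match Sobic.001G379400, singled out after its values were seen, with an edgeR interaction of -0.70 (adjusted p = 0.0777). Of 16 defense genes 3 were called (18.8%), namely both Bet v I genes and the dirigent match named above. Of 32 transcription factors 3 were called (9.38%), namely NSP1, the bHLH match and the zinc finger match. The heat shock list, which stands for handling stress, had 1 call among 8 genes (12.5%), the DnaJ match, with a median of 0.52. Of 7 metal transport genes 1 was called in each direction (28.6% in all), and of 11 receptor-like kinases CRCK2 alone was called (9.09%). Neither of 2 aquaporin matches (median 1.67) nor of 2 sugar transport matches (2.66) was called by edgeR, although DESeq2 called 1 of each, limma-voom 0, and 1 aquaporin and 2 sugar transport matches had an unadjusted p under 0.05.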

How the data were processed

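Raw gene counts from 15 3′ mRNA-Seq libraries of sorghum roots were used as deposited by the authors, who pooled technical replicates, trimmed reads, mapped them with STAR to the BTx623 genome and counted reads per gene. No source used here states the STAR version, the annotation version or the strand setting, so overlapping and near-identical genes may share reads. A further 1 column matched no labelled sample and was not used. Of 34129 genes, 6041 had no count.

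Genes above 1 CPM in 3 or more libraries entered edgeR 4.0.16 (R 4.3.3) with TMM factors, 4 groups and no covariate. The quasi-likelihood test of the interaction was two-sided, with Benjamini-Hochberg adjustment over the 18473 genes tested and a threshold of 0.05. The script was tested on simulated counts in which 200 genes were given a known interaction. It recovered 2.5% of interactions of 1 on the log2 scale, 40% of 1.5, 70% of 2 and 89% of 3. Of the calls, 0%, 4.8%, 7.9% and 4.3% were false. A gene that was not called may therefore still hold an interaction, above all one near 1 or below. The study calls the replicates biological, and how many plants gave each is not stated in the sources used here. Alternatives were limma-voom with quantile normalization (limma 3.58.1), DESeq2 1.42.0, other scalings and filters, a replicate block, thinning, a threshold of 0.01 and leaving out each library. Tables and plots were made with Python 3.11.15, pandas 2.3.3 and matplotlib 3.10.9. CPM in the text were scaled with TMM factors.

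Named genes were, first, those the study discusses. Added were the called annotated genes of each pattern with the largest interaction and a group mean of at least 10 CPM. From all called genes at that level came the 2 largest interactions in each direction. Called members of gene lists were named as well. The members and lists were chosen with earlier results of these data known. No gene ID matched the RefSeq gene table.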

Additional observations from a re-analysis of the deposited data

Results flagged for a closer look

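The change with age differed between the genotypes by the interaction test (edgeR adjusted p under 0.05) for 1355 genes. Of the 48 tested genes named above 40 were called, but most of them were named because they were called, so that share is no result. On the log2 scale, the interaction of the auxin genes was 1.30 (Sobic.002G259100), 1.18 (Sobic.004G156300), 2.06 (Sobic.001G056100), -2.48 (Sobic.001G331200) and -1.11 (Sobic.001G477400). For the abscisic acid genes it was 2.96 (Sobic.002G172000), 1.62 (Sobic.003G354000), 2.72 (Sobic.001G400900) and 1.86 (Sobic.001G401000), and for NSP1 it was 1.41 (Sobic.001G341400).

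Among other genes with a more positive change in SRN39, the interaction was 2.29 for CYP93D1 (Sobic.002G000400), 2.28 for the methionine-S-oxide reductase match (Sobic.001G513300), 2.27 for ADF4 (Sobic.001G417600), 1.97 for CYP71B7 (Sobic.001G176600), 1.84 for LSU4 (Sobic.001G198000), 1.79 for GSTF8 (Sobic.001G514300) and 1.30 for GSTU17 (Sobic.001G317000). It was 1.32 for the zinc finger match (Sobic.001G147200), 1.23 for CRCK2 (Sobic.001G503300), 1.05 for GSL12 (Sobic.001G521500) and 0.91 for the DnaJ match (Sobic.001G148500). For the genes that fell in SQR it was 5.17 (Sobic.001G200700), 5.13 (Sobic.001G492000), 4.76 (Sobic.001G409400), 4.04 (Sobic.001G034900), 3.91 (Sobic.001G383000), 3.59 (Sobic.001G311200), 6.01 (Sobic.002G118300) and 6.13 (Sobic.010G041900).

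Among genes with a more negative change in SRN39, the interaction was -3.15 (Sobic.001G209200), -2.13 (Sobic.001G209300), -1.62 (Sobic.001G507100), -1.60 (Sobic.001G232200), -1.30 (Sobic.001G252300), -4.07 (Sobic.001G278300), -1.38 (Sobic.001G295000), -2.15 (Sobic.001G012400) and -2.46 (Sobic.001G142800). For the adjacent genes read almost only in SQR at 35 d the fitted values were -8.72 (Sobic.004G283300) and -12.72 (Sobic.004G283201), the latter no bound since SQR at 28 d held 0 counts.

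In 7 gene and group pairs 1 library lay far from the other 3 by Dixon's test, which chance meets in about 1 in 20 groups. Many groups of 4 libraries of the named genes were looked at, so chance alone can give several such pairs. SQR at 28 d held a high library at 5.13 CPM for the HAI3 homolog Sobic.002G172000, at 89.3 CPM for Sobic.010G041900 and at 9.04 CPM for the metallothionein match Sobic.001G311200, each time replicate 3, and at 34.3 CPM for Sobic.001G401000, replicate 1. It held a low library at 2.82 CPM for CCD8 (Sobic.003G293600), again replicate 3. SRN39 at 28 d held a high library at 28.2 CPM for ADF3 (Sobic.001G034900) and a low one at 41.0 CPM for Sobic.001G477400.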

How the results depend on the processing

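No named gene with a called interaction changed sign under any alternative run. The uncalled interaction of CCD7 (Sobic.006G170300), 0.01, was -0.01 by DESeq2, -0.34 after thinning and between -0.37 and 1.03 without 1 library. DESeq2 called 2009 genes, 1341 of them shared with edgeR, and 1047 of its calls had a more negative change in SRN39. Limma-voom called 1286 genes, 1133 of them shared. Thinning all libraries to the smallest total left 1122 calls, 1048 of them shared. An adjusted p under 0.01 left 291 genes, 157 more positive and 134 more negative in SRN39. Leaving out 1 library gave 836 to 1951 calls, with 451 to 930 more positive and 385 to 1021 more negative. The median interaction of all genes, -0.02, moved by less than 0.1 under every scaling and was 0.03 with library totals. Of 40 called named genes, 28 were called in all 15 fits that left out 1 library. Without SQR replicate 2 at 35 d, 34 of the 39 that could be fitted were still called, and 33 of 40 without SQR replicate 3 at 28 d. SQR at 35 d has 3 libraries, 1 of which stood apart, so every interaction rests on that group, and depth limits genes under 2 CPM.

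With the replicate number as a block, 712 genes were called, 391 more positive and 321 more negative, 702 of them shared with the fit without it, and 12 of the named calls were lost. The deviations of same-numbered libraries correlated between -0.219 and 0.172, with both signs for replicates 1 to 4, and the labels tie no number to a shared batch, so the numbers were not taken to pair the samples. Whether same-numbered libraries share a batch was not tested.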
